A study of Arabidopsis thaliana with 12 samples.

Results

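Wall-loosening expansins outside the root hair pair are represented by 6 genes, the alpha-expansins EXPA4 (AT2G39700), EXPA8 (AT2G40610), EXPA9 (AT5G02260) and EXPA15 (AT2G03090) and the beta-expansins EXPB1 (AT2G20750) and EXPB3 (AT4G28250). They were picked by gene name, with earlier results of these data known, and each has 1 probe set among the 22810 on the array. EXPA7 and EXPA18, the expansins of growing root hairs, are not among them and serve below as a comparison. All 6 were among the 15835 probe sets tested. RNA came from pieces of Arabidopsis thaliana roots cut with a razor blade as meristematic zone, where cells divide, and elongation zone, where they lengthen, in seedlings 6 days old on standard medium, with roughly 60 roots pooled for each replicate. Seedlings were upb1-1 mutants, wild type (Col-0), or 35S::UPB1-3YFP #2, a single numbered line, called OX here, whose background is upb1-1 per the labels. Each of the 6 groups of genotype and zone had 2 biological replicates, 1 array each, so the number of arrays limits the precision.

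Expansins are small secreted proteins that loosen the plant cell wall at acidic pH, without cutting its polymers, and so let a cell under turgor extend. Alpha-expansins act on walls rich in cellulose and xyloglucan, while beta-expansins are best known from grasses, where the pollen members loosen walls rich in arabinoxylan. In the root, different expansin genes are used in different zones and cell types, and the best studied pair, EXPA7 and EXPA18, belongs to cells that form root hairs. UPB1 is a basic helix-loop-helix transcription factor of the root, the gene that is disrupted in upb1-1 and carried by the 35S transgene, whose viral promoter is active in most tissues.

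Array medians ran from 50.8 to 67.6 in signal, and replicates correlated across tested probe sets with r between 0.966 and 0.989 on the log2 scale, where genes are not independent replicates. UPB1 gave signals of 528 to 1379 on the 4 Col-0 arrays, 8.53 to 16.8 on the upb1-1 arrays and 28.1 to 55.2 on the OX-labelled arrays. The OX-labelled signals were thus far below Col-0, which goes against a label of UPB1 raised over wild type. They were above those of upb1-1, the stated background, with both sets dim. No source used here says whether this probe set detects the transgene transcript, so the signal may not check the label, and OX stands below for the arrays labelled so. Of 10 listed markers of dividing cells 3 were matched by name (AUR1, AUR2 and BUBR1). Their summed signal was 706 to 1412 on meristematic and 124 to 385 on elongation arrays. Symbols written with a semicolon were set aside as standing for several genes. The listed cyclins and cyclin-dependent kinases may be unmatched for that reason. Of 7 root hair markers EXPA7 and EXPA18 were matched. In Col-0 their sum was 789 to 899 on meristematic and 206 to 383 on elongation arrays. The control ratio, the mean log2 of 3' over 5' probe set signals for the array's housekeeping controls, was 2.22 in Col-0 and 2.04 in upb1-1 meristematic arrays, 4.17 in OX meristematic arrays, and between 3.93 and 4.04 in the elongation groups.

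**Figure D1:**
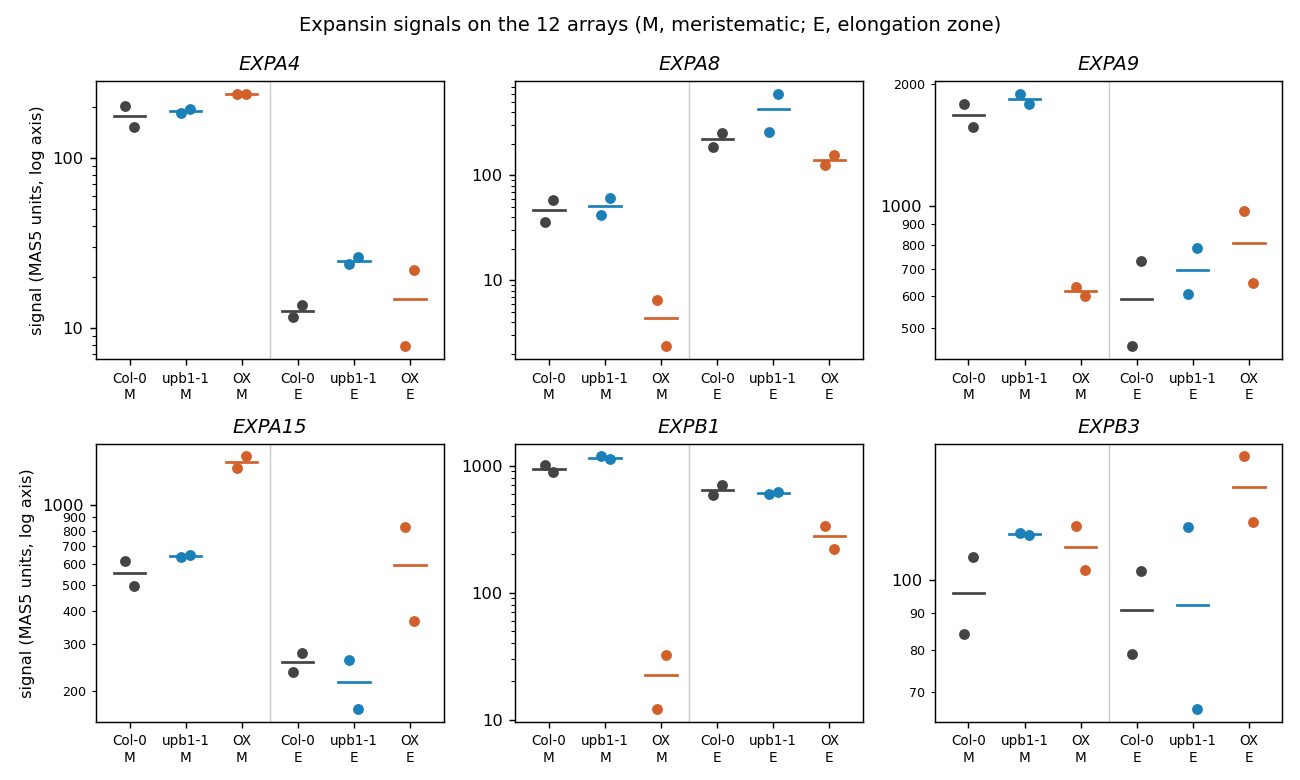
Signals of the 6 expansin probe sets on all 12 arrays (MAS5 units, log axis, with a range of its own for each gene). Points are single arrays, lines are means of 2 replicates, and M and E are the meristematic and the elongation zone. EXPA4 was at 152.0 or more on every meristematic and at 26.0 or less on every elongation array, and EXPB1 was lowest on the OX meristematic arrays.

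The plot of signals on the 12 arrays shows several kinds of zone pattern. EXPA4 and EXPA15 were higher in the meristematic than in the elongation pieces of every genotype, and EXPA8 ran the other way. EXPA9 and EXPB1 were high in the meristematic pieces of Col-0 and upb1-1 but not of OX, and EXPB3 stayed in a narrow range throughout. Signals of different probe sets are not comparable with each other, so every level below is set only against the same gene on other arrays.

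The meristematic signals of EXPA4 were 201.9 and 152.0 in Col-0, 185.0 and 194.9 in upb1-1 and 239.1 and 238.8 in OX. On the elongation arrays it gave 11.6 and 13.8 in Col-0, 23.7 and 26.0 in upb1-1 and 7.80 and 21.9 in OX. The zones did not overlap in any genotype. The same held for 72.7% of all tested probe sets in Col-0, 78.3% in upb1-1 and 75.8% in OX. All 6 elongation signals of EXPA4 lay below the 40th percentile of their array, a level between 26.1 and 36.5. EXPA4 thus entered the tests through its meristematic signals. The log2 difference of signal plus 16, elongation minus meristematic, was -2.74 in Col-0 (SE 0.24, adjusted p = 3.23e-06), -2.33 in upb1-1 (adjusted p = 3.74e-06) and -3.09 in OX (adjusted p = 1.63e-07), all from limma. In bulk pieces like these, fewer cells of a type and less RNA per cell cannot be told apart. The addition of 16 to each signal compresses differences of dim probe sets, and with 64 added the same values were -1.64, -1.51 and -1.95.

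EXPA8 was the only member higher in the elongation zone of all 3 genotypes. Its signals rose from 35.7 and 57.8 to 187.9 and 252.6 in Col-0 and from 42.2 and 60.4 to 259.7 and 599 in upb1-1. In OX they went from 6.46 and 2.35 to 125.6 and 155.5. The rises were 1.92 in Col-0 (log2, SE 0.32, adjusted p = 0.000346), 2.63 in upb1-1 (adjusted p = 1.42e-05) and 2.94 in OX (adjusted p = 3.55e-06), and the upb1-1 rise was number 12 by size among all tested probe sets. Both OX meristematic signals of EXPA8 lay below the 40th percentile of their array, and the OX rise was 4.82 with a pseudocount of 1 and 1.58 with 64.

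EXPA15 was lower in the elongation zone of every genotype. It gave 614 and 497 against 235.5 and 277 in Col-0, 636 and 647 against 261.7 and 170.6 in upb1-1, and 1377 and 1522 against 825 and 366 in OX, with meristematic signals first. No elongation array reached the meristematic arrays of its own genotype. Zones were likewise separate for 72.7% of all tested probe sets in Col-0, 78.3% in upb1-1 and 75.8% in OX. The OX elongation signals of EXPA15 overlapped those of the Col-0 meristem. EXPA15 fell by 1.07 in Col-0 (SE 0.29, adjusted p = 0.00872), by 1.53 in upb1-1 (adjusted p = 0.000457) and by 1.37 in OX (adjusted p = 0.00102). The Col-0 call was lost without meristematic replicate 1 (-0.92, adjusted p = 0.0817) or without elongation replicate 1 (-0.96, adjusted p = 0.0561), and the OX value was -0.80 without OX elongation replicate 2 (adjusted p = 0.0192).

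EXPA9 was lower in the elongation zone of Col-0 and upb1-1, and its OX arrays showed no such fall. Its meristematic signals were 1783 and 1567 in Col-0 and 1890.0 and 1787 in upb1-1, against 632 and 598 in OX. Its elongation signals were 450 and 729 in Col-0, 605 and 785 in upb1-1 and 971 and 645 in OX, so that the OX meristematic pair lay within the range of all elongation arrays and just below its own. EXPA9 fell by 1.52 in Col-0 (SE 0.23, adjusted p = 0.000171) and by 1.39 in upb1-1 (adjusted p = 0.000178). In OX the value was 0.36 (95% confidence interval -0.14 to 0.85, adjusted p = 0.213).

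The beta-expansin EXPB1 turned its direction between genotypes. Meristematic arrays gave 1012 and 885 in Col-0 and 1184 and 1126 in upb1-1, but 12.1 and 32.5 in OX. On the elongation arrays it gave 584 and 703 in Col-0, 602 and 626 in upb1-1 and 337 and 220.3 in OX. The zone difference was -0.55 in Col-0 without passing (adjusted p = 0.0851), a fall of 0.89 in upb1-1 (SE 0.24, adjusted p = 0.00658) and a rise of 2.97 in OX (adjusted p = 2.45e-07). The Col-0 value passed with 64 added to the signals (-0.52, adjusted p = 0.0336) and with only those 4 arrays fitted (-0.55, adjusted p = 0.0279), and the OX rise was 1.98 with 64 added.

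EXPB3, the other beta-expansin, passed in no zone comparison. Its 12 signals lay between 66.2 and 148.6, with 84.3 and 107.6 in Col-0, 116.2 and 115.8 in upb1-1 and 118.9 and 103.4 in OX on the meristematic arrays. The elongation arrays gave 78.9 and 103.2 in Col-0, 118.6 and 66.2 in upb1-1 and 148.6 and 120.5 in OX. Zone differences were -0.07 in Col-0 (95% interval -0.59 to 0.45), -0.33 in upb1-1 (-0.85 to 0.19) and 0.24 in OX (-0.28 to 0.76). These intervals leave room for differences of up to 0.85 in size. Without upb1-1 elongation replicate 1 the upb1-1 value passed (-0.68, adjusted p = 0.0304), and without replicate 2 it was 0.029 (adjusted p = 0.936).

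**Figure D2:**
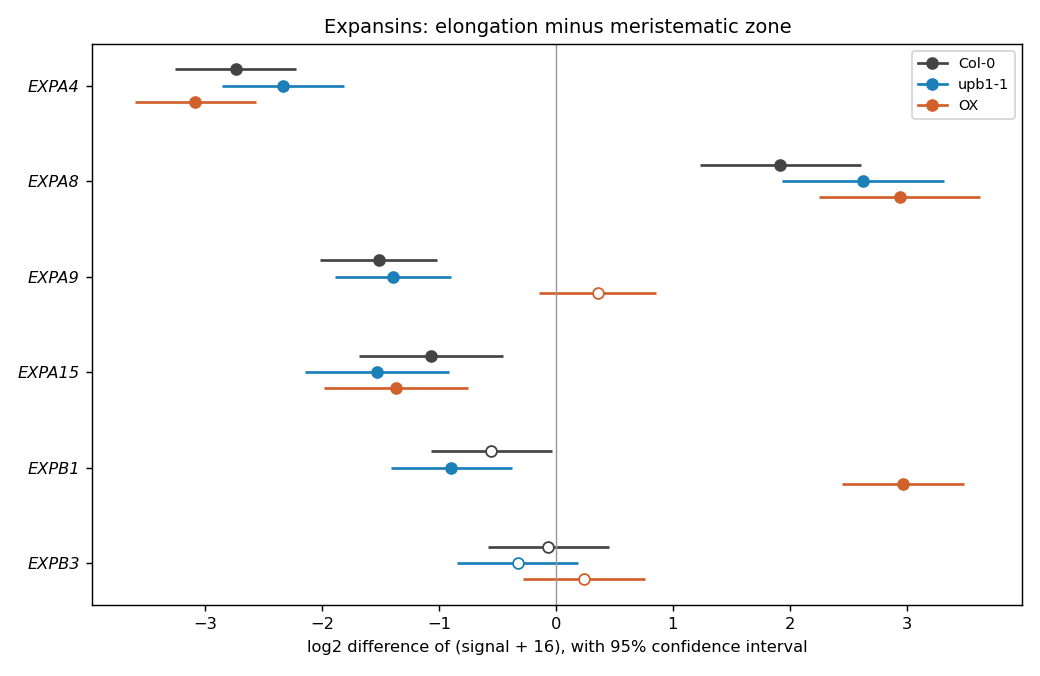
Log2 difference of signal plus 16 between the elongation and the meristematic zone for each expansin (horizontal axis) in Col-0, upb1-1 and OX. Points are limma estimates, bars are 95% confidence intervals, and filled points passed at an adjusted p below 0.05. EXPB1 was at -0.55 in Col-0 and 2.97 in OX, and EXPA9 at -1.52 and 0.36.

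In all, 4 of the 6 expansins differed between the zones in Col-0 (1 higher and 3 lower in elongation), against 40.3% of all tested probe sets. In upb1-1 5 differed (1 higher, 4 lower), against 52.6%, and in OX 4 differed (2 higher, 2 lower), against 53.5%. The member medians were -0.81, -1.14 and 0.30, beside -0.06, -0.04 and -0.11 for all tested probe sets. The control ratio was 1.71 higher (log2) in the elongation than in the meristematic arrays of Col-0 and 2.00 higher in upb1-1, but 0.19 lower in OX. Its part in the zone differences was not tested.

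Comparison of upb1-1 with Col-0 asks how the expansins respond to loss of UPB1. In the meristematic zone none of the 6 passed. All 6 estimates lay above 0, between 0.11 for EXPA4 and 0.28 for EXPB1, which gave 1155 ± 40.9 in upb1-1 against 949 ± 89.4 in Col-0 (SD, n = 2). Their 95% intervals all included 0, and the widest, that of EXPA8, ran from -0.58 to 0.80. With limma 0 of 6 passed, against 0.0379% of all tested probe sets. None of the 6 had an unadjusted p below 0.05, against 264 of the 15835 tested probe sets. The member median was 0.17 beside 0.00 for all probe sets.

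In the elongation zone of upb1-1 again none of the 6 passed by limma, against 18.8% of all tested probe sets. Of the 15835 tested, 5286 had an unadjusted p below 0.05, and for 56.1% the signals of upb1-1 and Col-0 did not overlap. EXPA8 came closest, with 429.5 ± 240.1 in upb1-1 against 220.3 ± 45.8 in Col-0 (SD, n = 2), a difference of 0.82 (95% interval 0.13 to 1.51, adjusted p = 0.0911) and the 1 unadjusted p below 0.05 among the members. Its upb1-1 replicates, 259.7 and 599, differed 2.31-fold, and both lay above the Col-0 signals of 187.9 and 252.6. The value passed without upb1-1 elongation replicate 1 (1.39, adjusted p = 0.0031) and, barely, with the replicate number as a block (0.82, adjusted p = 0.0496). Without upb1-1 elongation replicate 2 it was 0.24 (adjusted p = 0.71). EXPA4 gave 0.51 (adjusted p = 0.155) between signals that were dim in both groups. The remaining estimates were 0.26 for EXPA9, -0.25 for EXPA15, -0.06 for EXPB1 and -0.02 for EXPB3.

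The root hair expansins did pass in that same comparison. EXPA7 rose by 2.64 (adjusted p = 0.000309) and EXPA18 by 3.62 (adjusted p = 1.22e-05), and the expansin-like gene EXLA1 rose by 1.01 (adjusted p = 0.00713). The remaining 5 of the 8 other tested expansins did not pass, where 18.8% of all tested probe sets passed. The upb1-1 elongation replicates were 1059 and 2031 for EXPA7 and 682 and 1240 for EXPA18. EXPB1, at 614 ± 16.6 against 643 ± 83.7 in Col-0, showed no rise there, with a 95% interval from -0.58 to 0.46. This interval lies below the estimates of EXPA7 and EXPA18. Root hair markers, that is EXPA7 and EXPA18 themselves, summed to 1741 to 3272 on the upb1-1 against 206 to 383 on the Col-0 elongation arrays. Dividing cell markers summed to 124 to 203 against 252 to 385. GSO1 of the endodermal barrier gave 342 to 475 against 184.7 to 190.2, and LHCB4.1 of photosynthetic tissue 36.4 to 49.0 against 57.3 to 60.4. The part of these markers was not tested.

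**Figure D3:**
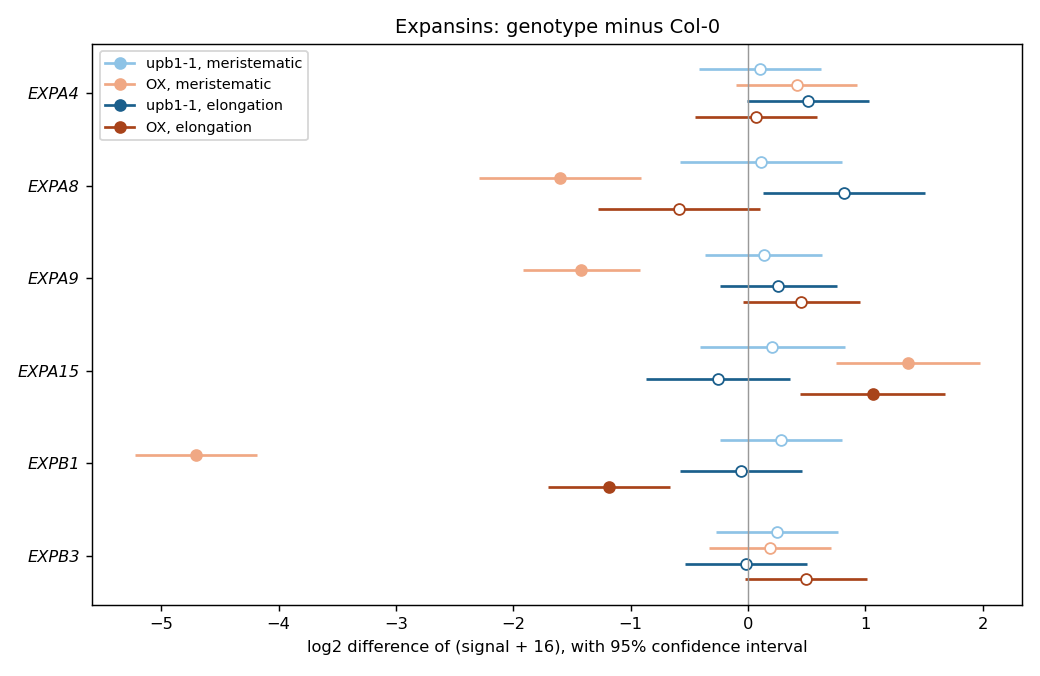
Log2 difference of signal plus 16 from Col-0 (horizontal axis) for each expansin in upb1-1 and OX in each zone. Points are limma estimates, bars are 95% confidence intervals, and filled points passed at an adjusted p below 0.05. No upb1-1 point is filled, and EXPB1 was at -4.70 in the OX meristematic zone.

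OX against Col-0 in the meristematic zone sets the line labelled as overexpressing UPB1 against wild type, and here the members split. EXPB1 fell by 4.70 (log2, SE 0.24, adjusted p = 2.35e-09), from 949 ± 89.4 to 22.3 ± 14.4 (SD, n = 2). EXPA8 fell by 1.61 (SE 0.32, adjusted p = 0.000891), from 46.8 ± 15.6 to 4.40 ± 2.91, and EXPA9 fell by 1.42 (SE 0.23, adjusted p = 0.000172), from 1675 ± 153.1 to 615 ± 23.6. EXPA15 rose by 1.36 (SE 0.29, adjusted p = 0.00128), from 556 ± 82.8 to 1449 ± 102.2. EXPA4 gave 0.41 (95% interval -0.10 to 0.93, adjusted p = 0.169) and EXPB3 0.19 (-0.33 to 0.71, adjusted p = 0.539).

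The signals of the 4 genes that passed did not overlap between the OX and the Col-0 meristematic arrays, as was the case for 79.2% of all tested probe sets. OX signals of EXPB1 and EXPA8 were below the 40th percentile of their arrays, so the size of these falls depends on the added constant, and all 4 passed with either constant tried. For EXPB1 the difference was -5.50 with a pseudocount of 1 and -3.56 with 64, and for EXPA8 -3.22 and -0.69. The calls of all 4 genes held when any 1 of the 4 arrays was left out, with EXPB1 between -5.10 and -4.31.

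This makes 4 of 6 members called, 1 higher and 3 lower, where 49.5% of all tested probe sets passed, 26% higher and 23.5% lower. The member median was -0.62 and that of all tested probe sets 0.10. With quantile normalization or median centring 4 members passed as well. Between these groups the control ratio differed by 1.95 (log2), with OX higher. The summed signal of the root hair markers EXPA7 and EXPA18 was 15.4 to 30.6 on the OX against 789 to 899 on the Col-0 meristematic arrays, and that of the 3 dividing cell markers was 1308 to 1412 against 731 to 778. Other lists had 1 gene matched by name or none, and no xylem or root cap marker was matched. BBM of the stem cell niche gave 102 to 116 against 35.4 to 47.9. GSO1 of the endodermal barrier gave 28.3 to 44.6 against 170.0 to 184.2, and LHCB4.1 of photosynthetic tissue 33.8 to 34.8 against 54.8 to 77.3. The part of these differences in the expansin results was not tested.

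**Figure D4:**
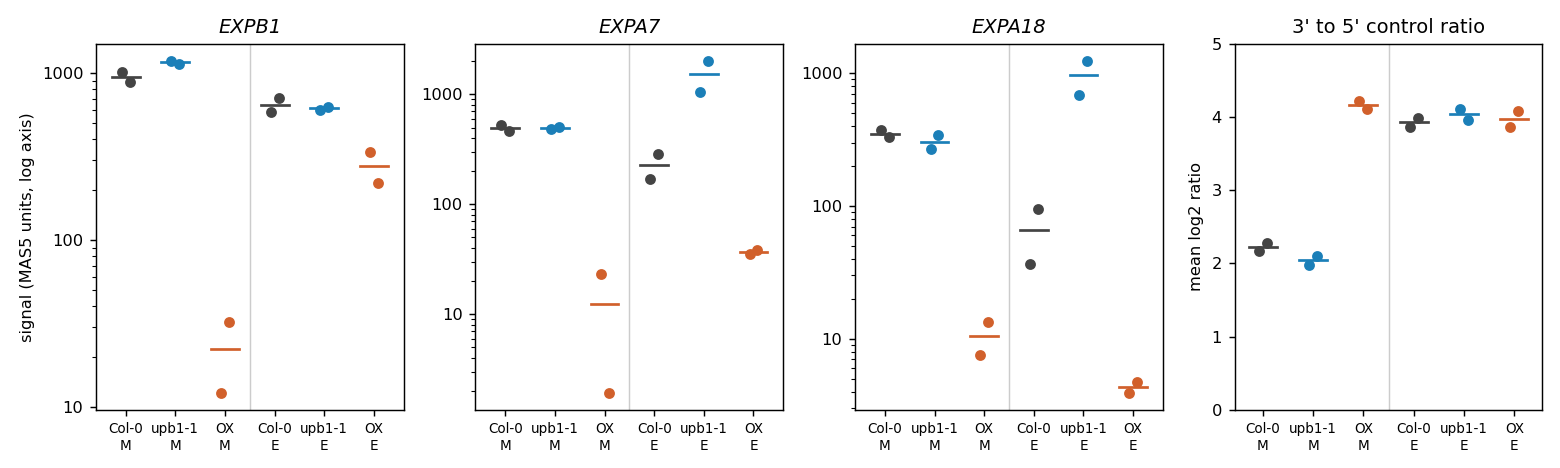
Signals of EXPB1 and of the root hair expansins EXPA7 and EXPA18 on the 12 arrays (MAS5 units, log axes), and the mean log2 3' to 5' ratio of the control probe sets (right, linear axis). Points are arrays and lines are means of 2 replicates. In mean signal EXPA7 and EXPA18 were highest in the upb1-1 elongation zone, and EXPB1, at 1155, in the upb1-1 meristematic zone.

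Against upb1-1, the stated background of the OX line, the 4 genes that passed in the meristematic zone passed again in the same directions, and the comparisons share the OX arrays. EXPB1 was lower by 4.99 (that is, -4.99, adjusted p = 1.27e-09), EXPA8 gave -1.72 (adjusted p = 0.000494), EXPA9 gave -1.55 (adjusted p = 7.12e-05) and EXPA15 rose by 1.15 (adjusted p = 0.00391). Again 4 of 6 passed, 1 higher and 3 lower, against 51.9% of all tested probe sets, whose median was 0.11. The EXPA8 value was -3.36 with a pseudocount of 1 and -0.75 with 64. EXPA4 gave 0.31 and EXPB3 -0.06 without passing. The control ratio was 2.12 higher on the OX arrays here. Root hair markers summed to 15.4 to 30.6 on the OX against 747 to 846 on the upb1-1 arrays, and dividing cell markers to 1308 to 1412 against 706 to 728. GSO1 gave 28.3 to 44.6 against 159.5 to 196.6, BBM 102 to 116 against 55.2 to 56.0 and LHCB4.1 33.8 to 34.8 against 67.7 to 72.4. The part of these markers was not tested.

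In the elongation zone 2 expansins passed between OX and Col-0. EXPB1 fell by 1.19 (SE 0.24, adjusted p = 0.00642), from 643 ± 83.7 to 279 ± 82.4, and EXPA15 rose by 1.06 (SE 0.29, adjusted p = 0.0248), from 256.2 ± 29.3 to 596 ± 324 (SD, n = 2). Both kept the direction they had in the meristematic zone, and neither gene's OX signals overlapped those of Col-0, as was the case for 55.0% of all tested probe sets. The control ratio differed by 0.04 between these groups. Root hair markers summed to 39.3 to 43.1 on the OX against 206 to 383 on the Col-0 elongation arrays. Dividing cell markers summed to 236 to 251 against 252 to 385. GSO1 gave 98.7 to 129.1 against 184.7 to 190.2, and LHCB4.1 of photosynthetic tissue 1.88 to 12.3 against 57.3 to 60.4. The part of these markers was not tested.

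EXPB1 and EXPA15 made 2 of 6 members called, 1 higher and 1 lower, against 14.1% of all tested probe sets. EXPA15 differed 2.25-fold between its OX elongation replicates, 825 and 366, and its call was lost without OX replicate 1 (0.49, adjusted p = 0.273), without Col-0 replicate 1 (0.95, adjusted p = 0.142) or 2 (1.17, adjusted p = 0.0568), and with no variance trend (adjusted p = 0.0531), while it was 1.63 without OX replicate 2. The EXPB1 call was lost without OX replicate 2 (-0.90, adjusted p = 0.060). EXPA8 gave -0.59 (adjusted p = 0.249), EXPA9 0.45 (0.214), EXPB3 0.50 (0.195) and EXPA4 0.07 (0.882), none of which passed.

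Against upb1-1 in the elongation zone 3 of 6 passed, 1 higher and 2 lower, where 24.2% of all tested probe sets did. EXPA15 rose by 1.32 (adjusted p = 0.00446), EXPB1 fell by 1.13 (adjusted p = 0.00422) and EXPA8 fell by 1.40 (adjusted p = 0.00616). The EXPA8 signals were 125.6 and 155.5 in OX against 259.7 and 599 in upb1-1. The groups did not overlap, as was the case for 58.3% of all tested probe sets. Without upb1-1 replicate 2 the EXPA8 value was -0.82 (adjusted p = 0.0998) and that of EXPA15 1.03 (adjusted p = 0.0532). Without OX replicate 1 they were -1.26 (adjusted p = 0.055) and 0.75 (adjusted p = 0.0611), and EXPB1 without OX replicate 2 was -0.84 (adjusted p = 0.0587). EXPB3 gave 0.51 (adjusted p = 0.14) and passed without upb1-1 replicate 1 (0.87, adjusted p = 0.0141), but was 0.16 without replicate 2 (adjusted p = 0.746). The control ratio differed by -0.07. Summed root hair markers were 39.3 to 43.1 on the OX against 1741 to 3272 on the upb1-1 elongation arrays, and dividing cell markers 236 to 251 against 124 to 203. GSO1 gave 98.7 to 129.1 against 342 to 475 and LHCB4.1 1.88 to 12.3 against 36.4 to 49.0. The part of these markers was not tested.

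Whether the zone difference itself depended on genotype was tested as an interaction, the zone difference of one genotype minus that of another. For OX against Col-0 it passed for EXPB1 (3.52, SE 0.35, adjusted p = 1.11e-05) and EXPA9 (1.87, SE 0.33, adjusted p = 0.00111), 2 of 6 members where 24% of all tested probe sets passed. For OX against upb1-1 the same genes passed, EXPB1 with 3.86 (adjusted p = 5.29e-06) and EXPA9 with 1.75 (adjusted p = 0.00149), against 26.2%. For upb1-1 against Col-0 none of the 6 passed by limma, against 2.27% of all probe sets. None of the 6 had an unadjusted p below 0.05, against 3042 of the 15835 tested probe sets. EXPA8 had the largest estimate of these 6, 0.71 (adjusted p = 0.429), which passed without upb1-1 elongation replicate 1 (1.28, adjusted p = 0.0374) and was 0.13 without replicate 2 (adjusted p = 0.928).

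For EXPA8 the interaction of OX with Col-0 depended on the added constant. It was 1.02 with 16 (adjusted p = 0.12) and 2.58 with 1 (adjusted p = 0.0121). Against upb1-1 it was 0.31 with 16 (adjusted p = 0.651), 1.87 with 1 (adjusted p = 0.0473) and -0.43 with 64 (adjusted p = 0.367), so no direction is given for it. EXPA4 gave -0.35 and -0.75 in the same order of comparisons, and EXPA15 -0.30 and 0.16, all without passing. The EXPA4 value against upb1-1 passed without OX elongation replicate 2 (-1.09, adjusted p = 0.0326) and was -0.42 without replicate 1 (adjusted p = 0.382). EXPB3 gave 0.31 and 0.57, the latter passing without upb1-1 elongation replicate 1 (0.92, adjusted p = 0.0412) and at 0.21 without replicate 2 (adjusted p = 0.653).

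Ordering the 6 groups by mean log2 signal, given here with the mean signals, showed where neighbours were separate. For EXPB1 the order ran from OX meristematic (22.3) through OX elongation (279), upb1-1 elongation (614), Col-0 elongation (643) and Col-0 meristematic (949) to upb1-1 meristematic (1155), and the replicates of upb1-1 and Col-0 elongation were the only neighbours that overlapped. For EXPA8 only the Col-0 and upb1-1 meristematic groups overlapped. EXPA9 formed a low set of 4 groups whose neighbours all overlapped (Col-0 elongation, OX meristematic, upb1-1 elongation and OX elongation) and a high pair, the Col-0 and upb1-1 meristematic groups. EXPA15 was highest in OX meristematic pieces, clear of the upb1-1 meristematic group below. For EXPB3 every neighbouring pair overlapped except the highest, upb1-1 meristematic (116.0) and OX elongation (134.6).

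The rest of the family was read from a list of 36 expansin and expansin-like genes, of which 18 had a probe set of their own in the annotation and 14 were tested, the 6 members and 8 others. In OX against Col-0 in the meristematic zone 4 of the 8 others fell, none rose and 4 did not pass, where 49.5% of all tested probe sets passed, with a median of -0.35 beside 0.10. They were EXPA7, which fell by 4.27, EXPA18, which fell by 3.79, EXLA1, which fell by 1.16, and EXLA2, which fell by 0.92. The OX elongation zone, set against that of Col-0, had 2 of 8 lower, EXPA7 and EXPA18, where 14.1% of all probe sets passed. Between the zones of Col-0, 3 of 8 fell in elongation (EXPA7, EXPA18 and EXLA1) and 5 did not pass, against 40.3% of all probe sets that passed. In upb1-1 3 rose in elongation, EXPA7, EXPA18 and EXLA2, and EXPA20 fell by 1.07, against 52.6%. Among the 14 tested expansins EXPA8 was thus the 1 that passed as higher in the elongation zone of Col-0.

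Other wall genes, from lists with few tested members, are given for the same comparisons. Of 33 xyloglucan endotransglucosylase/hydrolases, which cut and rejoin wall xyloglucan, 6 were tested. In OX against Col-0 in the meristematic zone 4 fell and 2 did not pass, where 49.5% of all probe sets passed (median -2.93 beside 0.10), with XTH18 at -4.70, XTH21 at -4.14 and XTH16 at -3.10. In the elongation zone of OX none of the 6 passed by limma (median -0.16), where 14.1% of all probe sets did. In that of upb1-1 5 rose (median 0.89 beside -0.02), where 18.8% of all probe sets passed and 9.36% were higher. COB, a membrane-anchored protein that orients cellulose in elongating root cells and the 1 tested gene of the 9 on the cellulose list, fell by 2.39 in OX meristems (adjusted p = 4.26e-08), while its value in the OX elongation zone was -0.46 without passing. No gene of the proton pump and extensin lists was covered by the annotation used here.

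The genes whose signals ran most like each expansin over the 12 arrays were taken from tested probe sets with 1 gene, by Pearson's r of log2 signals. The 12 arrays differ in zone, genotype and control ratio, and these differences are common to all genes, so a high r describes that shared pattern. For EXPB1 they were AT1G12080 (r = 0.98), AT2G30930 (0.98) and AT1G15400 (0.98), and for EXPA4 AT1G65570 (0.99), AT5G35735 (0.99) and AT2G38160 (0.99). EXPA8 was followed most closely by AT3G17020 (0.99), AT5G16520 (0.99) and AT3G47210 (0.98). For EXPA9 they were AT1G31730 (0.99), AT3G26990 (0.97) and AT1G53710 (0.95), and for EXPA15 AT1G36310 (0.98), AT2G21090 (0.97) and AT4G20980 (0.97). EXPB3, with its narrow range, had lower values, 0.88 for AT4G09480, 0.87 for the monodehydroascorbate reductase gene ATMDAR2 and 0.86 for AT1G34340.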

How the data were processed

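The authors deposited linear signal intensities per probe set of Affymetrix ATH1 arrays. The submitters' processing notes name MAS5 without a version, and the labels' protocols name Affymetrix's two-cycle amplification. The values share a 2% trimmed mean close to 250.03 on all arrays, as scaling gives. No detection calls were used. Of 22810 probe sets, 64 controls were left out. Signals were taken to log2 after adding 16. Tested were the 15835 probe sets at or above an array's 40th percentile on 2 or more of 12 arrays. limma 3.58.1 (R 4.3.3) was fitted with 6 group means and an eBayes variance trend, two-sided, with Benjamini-Hochberg adjustment over all tested probe sets of each of 12 comparisons and a threshold of 0.05. The prior carried 8.75 degrees of freedom. The code of the fit was also run on simulated data, with independent noise and changes planted in few probe sets of the OX meristematic group. That setting holds neither the widespread changes nor the control ratio differences of these arrays, so it does not test the fit under them.

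Gene names came from the platform annotation (14016 probe sets) and, for loci and synonyms, the TAIR10.1 gene table. All 6 members were named, with the 3 probe sets most like each, list genes that passed, and up to 3 leading genes of each wall list. The members and lists were chosen with earlier results of these data known. Alternatives were other pseudocounts, filters, scalings, fits of fewer arrays, the replicate block and leaving out each array.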

Additional observations from a re-analysis of the deposited data

Results flagged for a closer look

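The difference between the zones depended on genotype for EXPB1 and EXPA9, as an interaction test showed. With Col-0 the OX interaction also passed as higher for 4 of the 8 other tested expansins, where 24% of all tested probe sets passed. With upb1-1, where 26.2% passed, 1 of these 8 did, EXPA18, and it was lower. In both, 4 of the 6 tested xyloglucan endotransglucosylase/hydrolases and COB passed as higher. For EXPB1 the zone difference of OX exceeded that of Col-0 by 3.52 (log2, limma adjusted p = 1.11e-05) and that of upb1-1 by 3.86 (adjusted p = 5.29e-06). For EXPA9 the corresponding values were 1.87 (adjusted p = 0.00111) and 1.75 (adjusted p = 0.00149). These comparisons share the OX arrays and are not independent of each other. All 4 calls held when any 1 of the 8 arrays concerned was left out, with values for EXPB1 between 3.13 and 3.91 against Col-0 and between 3.47 and 4.25 against upb1-1, and for EXPA9 between 1.53 and 2.21 and between 1.46 and 2.04. Both OX meristematic signals of EXPB1 lay below the 40th percentile of their array, so the size of its interactions depends on the added constant. Its OX zone rise was 2.97 with 16 and 1.98 with 64 added. The control ratio also differed between the groups compared, with 4.17 on the OX and 2.22 on the Col-0 meristematic arrays. Its part was not tested.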

How the results depend on the processing

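Of 168 counts of changed members under alternatives, 158 stayed within 1.5 times the reported count. Away from single arrays, the exceptions were the elongation zone of upb1-1 and Col-0, where 1 member (EXPA8) passed with the replicate block, and OX against Col-0 in that zone, where 1 passed with no variance trend. The replicate block changed no other call. Deviations of same-numbered arrays correlated between -0.15 and 0.28 over 15 pairs of groups, so the numbers were not taken to pair the arrays. The highest value, 0.28, belonged to the Col-0 and upb1-1 elongation arrays, the comparison in which the block turned the EXPA8 call. Leaving out single arrays gave 0 to 1 for upb1-1 against Col-0 in the elongation zone and for its zone interaction, 1 to 1 for OX against Col-0 and 1 to 4 for OX against upb1-1 in the elongation zone. None of the 30 called differences among 72 changed sign. Without calls, signs turned for EXPB3 in upb1-1 against Col-0 in the elongation zone (0.0098 with quantile normalization and 0.010 with median centring) and between the Col-0 zones (0.15 and 0.10), for EXPA4 between the OX and Col-0 elongation zones (-0.026 with quantile normalization) and for EXPA8 in the interaction of OX with upb1-1 (-0.43 with 64 added). The cause was not tested.

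Single arrays left out turned further signs, none of a called value. In upb1-1 against Col-0 the ranges were -0.082 to 0.29 for EXPA4 and -0.15 to 0.37 for EXPA8 in the meristematic zone, and -0.079 to 0.60 for EXPA9, -0.54 to 0.033 for EXPA15, -0.19 to 0.070 for EXPB1 and -0.37 to 0.34 for EXPB3 in the elongation zone. They were -0.14 to 0.032 for EXPB3 in OX against upb1-1 meristems, -0.27 to 0.40 for EXPA4 in OX against Col-0 and -0.095 to 0.48 for EXPA9 in OX against upb1-1 elongation zones. Zone differences of EXPB3 ranged from -0.23 to 0.10 in Col-0 and from -0.68 to 0.029 in upb1-1. Interactions ranged from -0.22 to 0.46 for EXPA9 and -0.62 to 0.094 for EXPB3 (upb1-1 and Col-0), -0.87 to 0.27 for EXPA15 (OX and Col-0), and -0.27 to 0.89 for EXPA8 and -0.41 to 0.73 for EXPA15 (OX and upb1-1). Signals near or below the 40th percentile, as for EXPA4 in elongation zones, limit what a difference there can show.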

Other observations

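The expansins also ran together or apart in pairs over the 12 arrays. This is given as a description of arrays that differ in zone, genotype and control ratio. EXPA8 and EXPA15 ran most nearly opposite (Pearson's r = -0.93 of log2 signals). EXPA4 and EXPA8 gave -0.84. The alpha-expansins that were lower in the elongation zone did not form a tight set, with 0.69 for EXPA4 and EXPA15, 0.53 for EXPA4 and EXPA9 and 0.22 for EXPA9 and EXPA15. The beta-expansins EXPB1 and EXPB3 gave -0.23.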
